A study of Mus musculus with 8 samples.

Results

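The entries described here are 41 small RNAs that the deposited table names after a mouse miRNA precursor and not after an annotated mature miRNA. They were chosen by name from the 1234 entries of the deposited table: a lower-case mir precursor name followed by p5 or p3, the side of the precursor to which the sequence was assigned. They came from 36 precursors, 20 as p5 and 21 as p3, and 27 of them carried a named substitution, meaning that 1 base differed from the precursor. All 41 sequences differed from each other and were 18 to 25 bases long, with a median of 21. The libraries hold small RNA of Kupffer cells, which are macrophages resident in the liver, sorted by flow cytometry from male mice after a high-fat diet of 8 weeks that began at 8 weeks of age. The 4 knockout (KO) libraries came from Trem2-/- mice numbered 40, 46, 88 and 90, and the 4 wild-type (WT) libraries from littermates numbered 35, 37, 80 and 82, 1 library an animal. All 8 mice were on the diet, so no group shows the cells without it. Trem2, a lipid-sensing receptor of myeloid cells, is an mRNA gene and was not measured in these libraries, so the genotype labels could not be checked.

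A miRNA precursor folds back into a hairpin, and Dicer cuts out a short duplex of its arms, of which one is usually kept and the other degraded. Sequencing also finds the rarer arm, the stretch just outside it (an offset RNA) and pieces of longer RNAs: ribosomal RNA, tRNA, small nucleolar RNA (snoRNA) and transcripts of repeats such as the B1 and B2 short interspersed elements of the mouse genome. Some database precursors overlap such RNAs, so a name beginning with mir does not by itself make a sequence a Dicer product.

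The sequences are shown first, because their origin decides how each level can be read. Those from the table are deposited sequences in DNA letters, and hairpins are from RefSeq (GRCm38.p6) in RNA letters. The most abundant entries were those named mir-6240 and mir-6236. Capitals mark the base that differs from the named precursor, and in the hairpin the stretch that the mir-6240 entries cover.
mir-6240-p5: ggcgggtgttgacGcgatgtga
mir-6240-p3: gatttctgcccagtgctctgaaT
mir-6236-p5: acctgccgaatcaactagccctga
mir-6236-p3: ccatacccGgccgtcgccggca
Mir6240 hairpin: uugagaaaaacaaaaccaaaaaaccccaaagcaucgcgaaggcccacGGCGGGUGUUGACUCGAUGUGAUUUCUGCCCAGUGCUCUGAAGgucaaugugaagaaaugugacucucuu

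The Mir6240 hairpin lies on chromosome 5, 114851948 to 114852064, plus strand, and no other gene of GENCODE overlaps it. On its 117 bases mir-6240-p5 sat at 48 to 69 and mir-6240-p3 at 68 to 90, so the entries were not separated by a loop but shared 2 hairpin bases end to end. The substitutions were T14G in mir-6240-p5 and G23T in mir-6240-p3, the hairpin base first and positions counted from 1 at the entry's 5′ end. The annotated miR-6240 lies at 26 to 51 and overlaps mir-6240-p5 by 4 bases. mir-6236-p5 matched exactly 1 GENCODE transcript, that of its miRNA gene. Whether these 4 entries match ribosomal RNA was not tested, because no sequences of the large cytoplasmic ribosomal RNAs were searched beyond what GENCODE lists.

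Entries with precursors that overlap tRNA and snoRNA genes follow, shown because the annotation places these entries in another stable RNA. Capitals mark in mir-1983-p3 the substituted base, in hairpins the position of the entries, and in mir-3535-p3 and its annotated partner miR-3535 the letters CTGA and ATGATGA.
mir-1983-p5: gctccagtggcgcaatcgg
mir-1983-p3: tAatgccgaggttgtgagtt
Mir1983 hairpin: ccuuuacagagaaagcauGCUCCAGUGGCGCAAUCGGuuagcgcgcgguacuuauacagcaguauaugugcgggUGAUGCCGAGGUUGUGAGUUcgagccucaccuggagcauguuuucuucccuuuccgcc
mir-3084-2-p5: agcagagtaactgaatatagt
Mir3084-2 hairpin: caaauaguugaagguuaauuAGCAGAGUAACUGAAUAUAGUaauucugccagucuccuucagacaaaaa
mir-3535-p3: cctctagatagtcaagttCTGAtc
miR-3535: tggatATGATGActgattacctgaga

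The Mir1983 hairpin (chromosome 13, 21896918 to 21897049, minus strand) holds the RefSeq tRNA gene n-TItat14 at hairpin bases 19 to 112. mir-1983-p5 began at base 19, the first base of that tRNA gene, and mir-1983-p3 lay inside it at 75 to 94, with substitution G2A. The Mir3084-2 hairpin (chromosome 19, 60774329 to 60774397, minus strand) lies in an intron of Eif3a, a translation initiation factor subunit, and overlaps the snoRNA gene Snora19. mir-3084-2-p5 sat at 21 to 41 of its 69 bases and overlapped the annotated 5p arm by 8. The entry's sequence matched 4 genes exactly: the snoRNA genes Snora19 and Gm23658 and the miRNA genes Mir3084-1 and mmu-mir-3084-1. mir-3535-p3 matched exactly the snoRNA Gm24148 (chromosome 1, 86352008 to 86352087, minus strand), which lies within Ncl, the nucleolin gene. C/D box snoRNAs carry a box with letters such as ATGATGA near their 5′ end and one with CTGA near their 3′ end. miR-3535 held ATGATGA, as did 6 of the 1193 different sequences of the table (0.503%), and it also held CTGA. mir-3535-p3 held CTGA, as did 166 of them (13.9%). Only the sense strand of the entries was searched for these letters, and a match is a description and not a site.

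Repeated sequences and near copies of other miRNAs are shown next, with the run that pairs of entries share in capitals.
mir-1934-p3: gGGGCTGGAGAGATGGCTC
mir-3473f-p3: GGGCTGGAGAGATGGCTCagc
miR-3473b_R-2: GGGCTGGAGAGATGGCTC
mir-5098-p3: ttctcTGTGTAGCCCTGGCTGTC
mir-1954-p3: TGTGTAGCCCTGGCTGTCc
mir-3470b-p5: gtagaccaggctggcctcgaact
mir-3470b-p3: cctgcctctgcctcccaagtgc
mir-3470a-p3: cctctgcctcctgagtgc
mir-3964-p3: CATAAAGTAGAAAGCACTAa
miR-142a-5p_L+2R-1: ccCATAAAGTAGAAAGCACTAc
mir-3970-p5: TGAGGTAGTAGTTTGTGCTt
let-7i-5p: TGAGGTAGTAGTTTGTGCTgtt

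The 41 sequences were searched, in sense, in 141767 GENCODE mouse transcripts. Exact matches in at least 10 genes were found for 13 entries, among them mir-1954-p5 with 803 genes, mir-3470b-p5 with 548, mir-3470b-p3 with 522, mir-1934-p3 with 232, mir-3470a-p3 with 198 and mir-3473f-p3 with 183. Another 2 matched a snoRNA, 2 matched another gene, 5 matched a miRNA transcript and another gene, 7 matched a miRNA transcript alone, and 12 matched nothing exactly. The first 3 of these classes make 17 of 41 entries that matched annotated RNA of another kind, not counting the 5 that matched a miRNA transcript and another gene. For mir-692-2-p3 and mir-3473d-p3 that other gene was not the host of the named precursor. With 1 mismatch allowed the number was 20, and no entry was left without any match. mir-1934-p3 and mir-3473f-p3 share 18 bases with the deposited miR-3473b_R-2 and with each other, and mir-3473f-p3 holds all 20 bases of RefSeq's miR-3473b. mir-5098-p3 and mir-1954-p3 share 18 bases. Reads of these entries could thus have been divided among several names.

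mir-3964-p3 and mir-3970-p5 are almost the 5′ arms of other miRNAs. The first 19 of the 20 bases of mir-3964-p3 are those of miR-142a-5p, a miRNA of blood cells, and its substitution from the Mir3964 hairpin is G6A. The first 19 of the 20 bases of mir-3970-p5 are those of let-7i-5p, a member of the let-7 family, and its substitution from the Mir3970 hairpin is T7A. Each entry thus differs from its named precursor at an internal base. Over the entry's own length, it differs from the other miRNA only at its last base. Which of them gave the reads was not tested, so both levels are uncertain. mir-3102-p3 was identical over its whole length to RefSeq's miR-3102-3p, so it is unannotated by its deposited name alone.

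The last sequences show where entries lie on miRNA hairpins, with the entry in capitals.
Mir500 hairpin: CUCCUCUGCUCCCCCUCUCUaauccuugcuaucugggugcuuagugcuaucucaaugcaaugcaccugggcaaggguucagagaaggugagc
Mir101b hairpin: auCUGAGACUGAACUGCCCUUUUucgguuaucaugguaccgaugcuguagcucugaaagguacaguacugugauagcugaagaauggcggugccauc
Mir3473d hairpin: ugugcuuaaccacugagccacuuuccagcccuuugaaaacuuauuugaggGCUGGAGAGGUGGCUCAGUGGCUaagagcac

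Of the 41 entries, 22 had a hairpin in the RefSeq table, and all 22 could be placed on it, 8 exactly and 14 with 1 substitution. mir-500-p5 covered bases 1 to 20 of Mir500 (chromosome X, 7237683 to 7237774, minus strand, in an intron of Clcn5), and the annotated miR-500-5p starts at the next base, 21. mir-101b-p5 covered bases 3 to 23 of Mir101b (chromosome 19, 29135279 to 29135375, plus strand, in an intron of Rcl1), and miR-101b-5p starts at 24. These 2 entries thus lay directly outside the annotated 5p arm, the position of an offset RNA. mir-3473d-p3, at 51 to 73 of Mir3473d (chromosome 8, 111016450 to 111016530, minus strand, in an intron of Ddx19b), had 20 of its 23 bases paired to the annotated miR-3473d in the fold that RNAfold predicts. In all, 5 of the 22 entries had at least 50% of their bases paired to an annotated mature miRNA, the arrangement of opposite arms: mir-3473d-p3, mir-5104-p5 with 17 of 23, mir-8112-p5 with 16, mir-6240-p3 with 14 and mir-7050-p5 with 11. Of these, mir-7050-p5 also overlapped an annotated mature miRNA. By contrast, 10 of the 22 overlapped an annotated mature miRNA, 6 of them by 10 bases or more, mir-3964-p3 by as many as 19. The share of an entry's bases that were paired with any base of the hairpin ran from 15.8% (mir-1954-p5) to 90.5% (mir-3473f-p3), with a median of 69.8%.

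**Figure D1:**
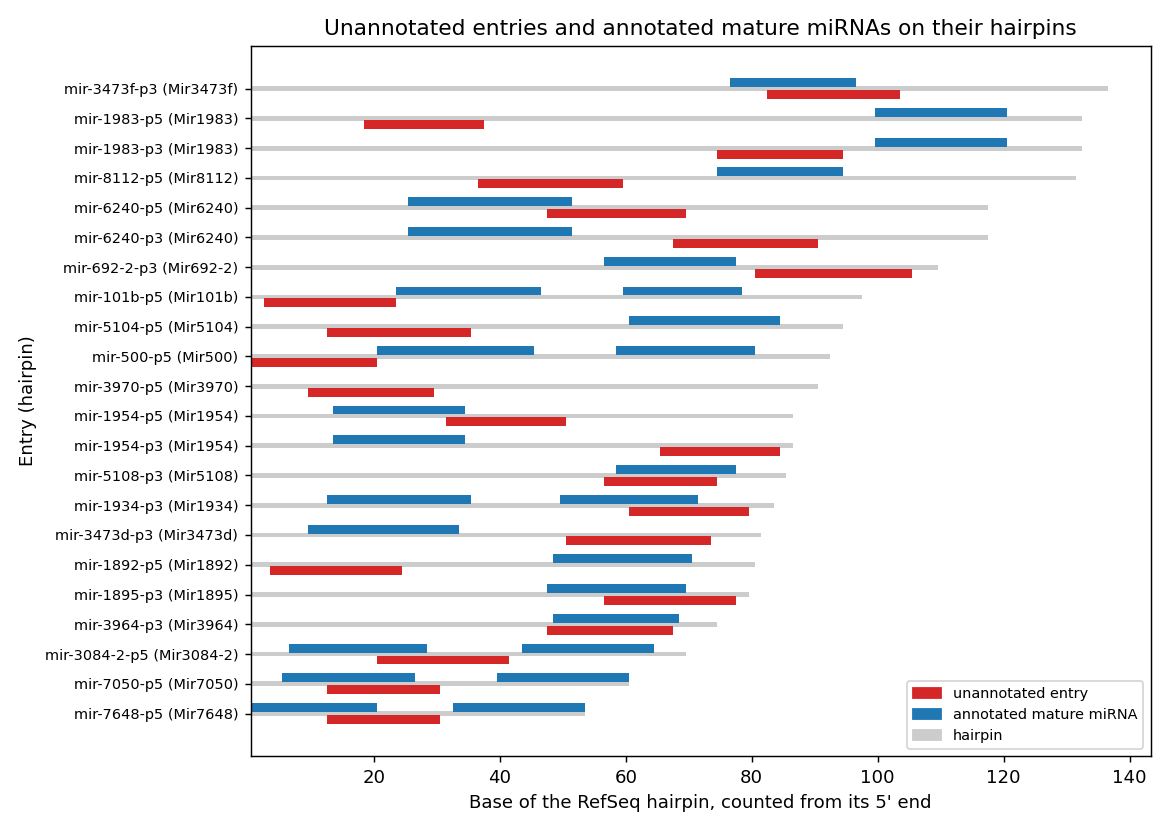
Position of the 22 unannotated entries that have a RefSeq hairpin (red) and of the annotated mature miRNAs (blue) along the hairpin (grey); the x axis counts bases from the hairpin's 5′ end. The mir-500-p5 and mir-101b-p5 bars end where a blue bar starts, the mir-6240 bars share 2 bases, and 10 red bars overlap a blue one.

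Before the levels, the libraries were compared. Depth was 2129942 to 9443992 expected counts. Levels are given in CPM, the count relative to the library's scaled total. The limit that a count of 0 allows, 3 counts, equals 0.318 to 1.41 CPM when taken relative to the unscaled totals. Such floors cover counting error only. The 41 entries took 0.351% of the counts in KO 40 and 1.44% in WT 82, and the other 6 libraries had 0.474% to 0.719%, so WT 82 stood apart. Their mean share was 0.783% ± 0.452 (SD, n = 4) in WT and 0.515% ± 0.123 in KO, and 0.564% in WT without WT 82. Among 7 myeloid marker miRNAs all were listed, with a summed level of 244546 to 498453 CPM in WT and 287405 to 549285 in KO. The lowest of these sums was in WT 82. Of 6 hepatocyte markers 5 were listed, summing to 139404 CPM in WT 37 and 9139 to 41061 in the other libraries.

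**Figure D2:**
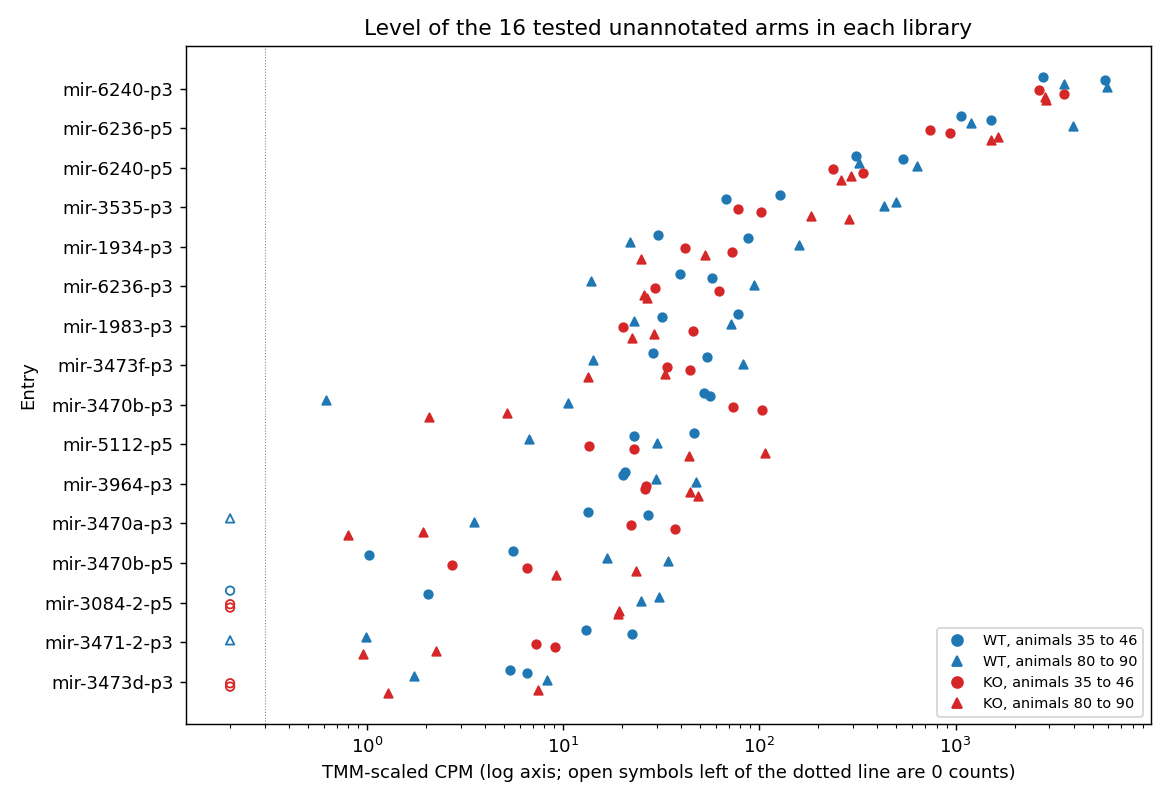
Level of the 16 tested entries (rows, ordered by mean) in each of the 8 libraries on a log axis of TMM-scaled CPM; blue is WT, red is KO, circles are animals 35 to 46, triangles are animals 80 to 90, and open symbols are counts of 0. The mir-6240 entries and mir-6236-p5 lie highest, no row separates blue from red, and rows such as mir-3470b-p3 and mir-3084-2-p5 separate circles from triangles.

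The level was concentrated in few entries. The 4 named mir-6240 and mir-6236 held 90.7% of all counts of the 41 entries, between 87.9% and 94.8% in a library, the 2 with a snoRNA match held 4.77%, and the 13 repeated in many genes held 2.38%. A filter on low values was passed by 16 entries, with mean levels of 3.82 to 3750 CPM. The other 25 had mean levels of 0.188 to 6.14 CPM, 7 of them were seen in 1 library, and 23 to 31 of the 41 were detected in a library.

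mir-6240-p3 had 2788, 5755, 3570 and 5898 CPM in WT 35, 37, 80 and 82 and 2661, 3553, 2872 and 2907 CPM in KO 40, 46, 88 and 90. WT 37 and WT 82 were the high libraries, and the genotypes overlapped. mir-6240-p5 had 312, 538, 321 and 634 CPM in WT and 237, 339, 294 and 261 CPM in KO, with the same pair of libraries highest. The log2 ratio of mir-6240-p5 to mir-6240-p3 was −3.36 ± 0.13 (SD over 8 libraries), the narrowest of the pairs described here, and summed counts of the p5 entry were 9.69% of those of the p3 entry. By the correlation of log2 CPM over the 8 libraries, the entries most like mir-6240-p3 were mir-6240-p5 (r = 0.967) and the entries bta-mir-2904-2-p3_1ss16TC_1 and bta-mir-2904-2-p3_1ss16TC_2, named after a cattle precursor (both r = 0.851). These cattle-named entries had equal CPM in each of the 8 libraries, so they give the same profile. The values of these libraries share depth and scaling.

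mir-6236-p5 had 1072, 1509, 1201 and 3971 CPM in WT 35, 37, 80 and 82 and 742, 943, 1644 and 1524 CPM in KO 40, 46, 88 and 90. WT 82 stood far above the other 7 libraries. mir-6236-p3 was much lower, with 39.4, 57.4, 13.9 and 93.8 CPM in WT and 29.5, 62.4, 25.7 and 26.6 CPM in KO. mir-1983-p3, placed inside the tRNA gene with 1 substitution, had 77.6, 31.8, 22.9 and 71.8 CPM in WT and 20.2, 46.1, 28.9 and 22.3 CPM in KO, with overlapping groups. Its partner entry mir-1983-p5 was below it in every library, at 3.87% of its counts in all.

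The genotype comparison asked whether loss of Trem2 changed these entries in Kupffer cells. No entry passed: edgeR's quasi-likelihood test with Benjamini-Hochberg adjustment called 0 of the 16 tested and 0 of all 627 entries tested (0%). At an unadjusted p below 0.05 it had 0 of the 16 and 2 of the 627, and DESeq2, voom and limma-trend also called 0 entries. DESeq2 and limma-trend had 0 of the 16 at an unadjusted p below 0.05, and voom had 1. Of the 16, 12 were lower and 4 higher in KO with a median log2 difference of −0.59, against a median of −0.04 over all 627 entries. With the same 16 entries kept, the median was −0.05 without WT 82 and −0.68 to −0.49 without any other single library. It was −0.30 by voom and −0.29 by limma-trend with all 8 libraries. The groups of 4 libraries did not overlap for 0 of the 16 and for 5 of the 627 (0.797%), 2 of these with KO above WT (0.319%) and 3 with KO below (0.478%).

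The entries with the smallest p in the lower direction were mir-6240-p5 (log2 difference −0.67 ± 0.34, SE), mir-6240-p3 (−0.59 ± 0.31), mir-1983-p3 (−0.80 ± 0.52) and mir-6236-p5 (−0.68 ± 0.48), each with an edgeR adjusted p of 0.997. The difference of mir-6236-p5 was −0.06 without WT 82, and that of mir-1983-p3 was −0.53 without WT 35. mir-6240-p3 averaged 4502 ± 1563 CPM in WT and 2998 ± 386 CPM in KO (SD, n = 4). In the upper direction they were mir-5112-p5 (0.83 ± 0.74), mir-3964-p3 (0.30 ± 0.46), mir-3470b-p3 (0.63 ± 1.31) and mir-3470a-p3 (0.51 ± 1.48), at the same adjusted p. mir-5112-p5 had 46.3, 22.8, 6.65 and 30.0 CPM in WT and 13.6, 23.0, 107 and 43.8 CPM in KO, with KO 88 the highest, and its log2 difference was 0.04 without KO 88 and 0.05 by voom. That of mir-3964-p3 was 0.12 without KO 90 and 0.62 without WT 82, and those of the mir-3470 entries changed sign without KO 46. The SEs of mir-3470b-p3 and mir-3470a-p3 exceeded 1 on the log2 scale in this fit, so a difference of that size was not detectable in it. With the ranges of animal numbers described below as a block, the differences were 0.09 ± 0.72 and 0.16 ± 0.94. In bulk libraries, fewer cells of a type and less RNA per cell cannot be told apart.

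The annotated arms of the same precursors are the natural comparison. Of 11 such entries 7 were tested, 6 were lower and 1 higher in KO, the median log2 difference was −0.32 and 0 were called by edgeR. The one with the highest mean level, miR-320-3p, had 1059, 1709, 1442 and 1358 CPM in WT and 1178, 1112, 1141 and 1041 CPM in KO, a log2 difference of −0.32 ± 0.26. The balance between arms was fitted for the 166 pairs of arms of mouse precursors with a mean of at least 1 count on both sides. Of these pairs, 14 include an unannotated entry. Pairs were formed by name and not by position on the hairpin. limma with Benjamini-Hochberg adjustment called 0 of the 166 (0%), 6 of all and 0 of the 14 having an unadjusted p below 0.05.

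The unannotated entry was usually the lower of its pair, but not always. Not every pair is one of opposite arms: mir-500-p5 lies outside miR-500-5p, and mir-3084-2-p5 overlaps the annotated 5p arm. mir-328-p5 had counts of 5, 11 and 5 in WT 37, KO 40 and KO 46 and 0 elsewhere, and its summed counts were 0.0540% of those of miR-328-3p. mir-320-p5 reached 0.197% of miR-320-3p and mir-500-p5 0.720% of miR-500-3p, each below its partner in 8 of 8 libraries. mir-3535-p3 was at 20.8% of miR-3535, also below it in 8 of 8, and mir-3084-2-p5 at 72.3% of miR-3084-3p, below it in 7 of 8. These last pairs are the ones whose precursors overlap snoRNA genes.

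In 3 precursors the unannotated entry exceeded its partner in summed counts. mir-1934-p3 had 30.4, 87.5, 21.9 and 160 CPM in WT and 41.6, 72.4, 52.7 and 24.8 CPM in KO, while miR-1934-5p was at 0 to 10.1 CPM. The entry was higher in every library, but its sequence occurs in 232 genes, so that level cannot be assigned to the precursor. mir-3470a-p3 had 341% of the summed counts of miR-3470a, but not in every library. The log2 ratio was −5.04 in WT 80, −1.57 in WT 82 and 0 in KO 90, and miR-3470a had 0 counts in WT 35, KO 40 and KO 88. mir-3473h-p3, with 51 counts in all, had 392% of those of miR-3473h-5p. mir-3470a-p3 matched 198 genes, and mir-3473h-p3 matched 2 long non-coding RNAs.

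**Figure D3:**
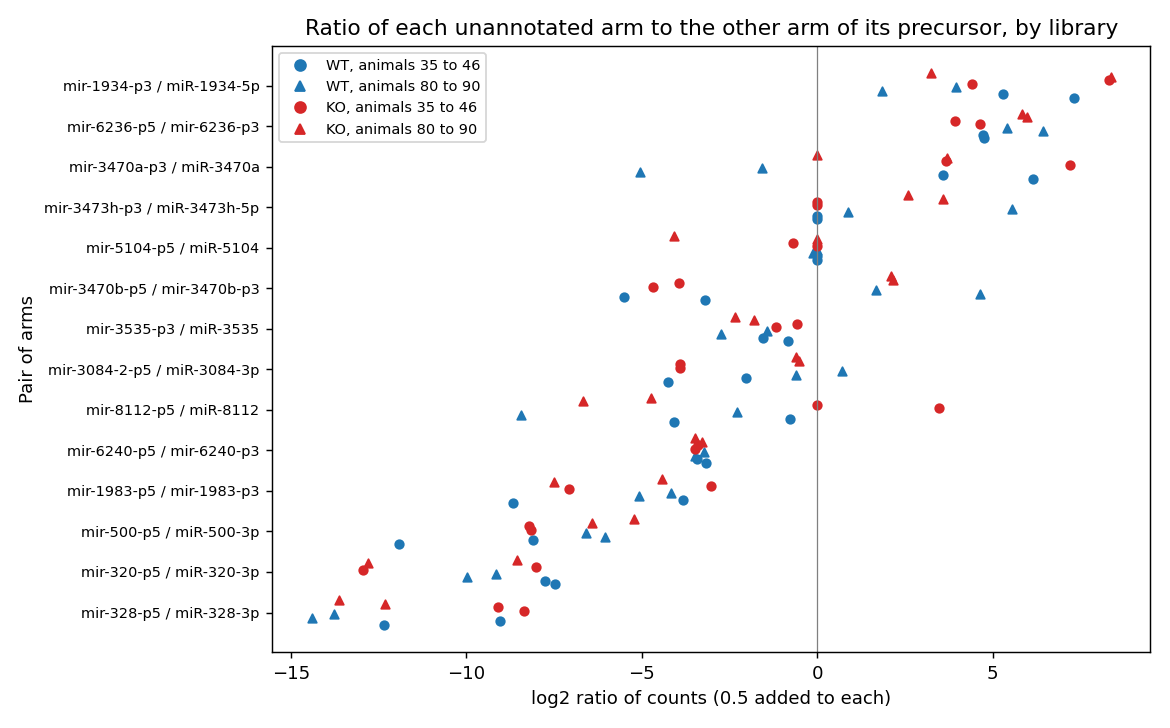
log2 ratio of counts (0.5 added to each) of each unannotated entry to the entry paired with it by precursor name, in 8 libraries, for the 14 pairs fitted. In the pairs named mir-6240, mir-6236, mir-1983 and mir-3470b both sides are unannotated entries. Colours and symbols are as in the plot of levels; a point left of 0 means the first-named entry was the lower one, and the mir-3470b triangles and circles lie on opposite sides of 0.

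The animals fall into 2 ranges of numbers, 35 to 46 and 80 to 90, each with 2 WT and 2 KO mice. The labels do not say what the ranges are, and the split was examined because earlier results of these data showed libraries grouping by it. Within edgeR's quasi-likelihood test with genotype as a term, 6 of the 16 entries were called, which is near the background of 203 of 627 entries (32.4%). There were 3 entries higher in animals 80 to 90, against 16.6% of all entries, and 3 lower, against 15.8%. With DESeq2 size factors in place of TMM, 5 were higher and 3 lower, against 119 higher and 90 lower of all 627 entries. The ranges did not overlap for 7 of the 16, against 41.1% of all entries: 4 lay higher in animals 80 to 90, against 21.4%, and 3 lower, against 19.8%. Total-count scaling moved the median log2 difference of all entries from −0.04 to 0.16, so each difference holds relative to such a shift.

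The 2 entries with a snoRNA match rose in animals 80 to 90. mir-3535-p3 had 128, 67.2, 78.0 and 102 CPM in WT 35, WT 37, KO 40 and KO 46 and 496, 434, 184 and 287 CPM in WT 80, WT 82, KO 88 and KO 90. The ranges did not overlap, and the log2 difference was 1.82 ± 0.31 (edgeR adjusted p = 0.0022). mir-3084-2-p5 had 0, 2.04, 0 and 0 CPM in the lower range and 30.7, 25.0, 19.3 and 18.9 CPM in the upper, a fitted log2 difference of 5.77 ± 1.04 (edgeR adjusted p = 0.0027) that is no bound because 3 libraries were at 0. It was 9.59 without WT 37, the 1 library of the lower range with any count of this entry. The annotated arms on the same transcripts rose as well: miR-3535 by 3.03 ± 0.39 and miR-3084-3p by 2.85 ± 0.57 on the log2 scale (edgeR adjusted p = 5.0e-04 and 0.0048).

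Entries with mir-3470 names went in both directions. mir-3470b-p3 had 52.4, 55.8, 73.0 and 104 CPM in WT 35, WT 37, KO 40 and KO 46 and 0.616, 10.6, 5.14 and 2.07 CPM in WT 80, WT 82, KO 88 and KO 90, a log2 difference of −3.96 ± 0.77 (edgeR adjusted p = 0.0041). mir-3470b-p5 had 5.54, 1.02, 2.71 and 6.55 CPM and then 16.7, 34.3, 23.5 and 9.23 CPM in the same order, a log2 difference of 2.44 ± 0.72 (edgeR adjusted p = 0.027). Neither overlapped between the ranges. The log2 ratio of p5 to p3 was −3.20, −5.52, −4.68 and −3.94 in WT 35, WT 37, KO 40 and KO 46 and 4.63, 1.69, 2.16 and 2.12 in WT 80, WT 82, KO 88 and KO 90, so the arm with more counts changed with the range. The exact matches in 548 and 522 genes mean that the counts cannot be assigned to 1 precursor.

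mir-3470a-p3 fell likewise, from 13.4, 26.9, 22.1 and 37.3 CPM in the lower range to 0, 3.52, 1.93 and 0.796 CPM in the upper (−4.00 ± 1.01, edgeR adjusted p = 0.015). mir-3471-2-p3, with exact matches in 81 genes, fell from 13.0, 22.4, 7.23 and 9.04 CPM to 0.985, 0, 2.25 and 0.955 CPM (−3.65 ± 1.03, edgeR adjusted p = 0.022). In both, no library of one range reached the other range. mir-3470b-p5 lost its call without WT 37, WT 82, KO 40 or KO 88, mir-3470a-p3 without WT 37, KO 46 or KO 90, and mir-3471-2-p3 without WT 35, WT 37, KO 46 or KO 90. Without WT 37, 3 of the 21 entries then tested were called in all, against 129 of 701 over the whole table.

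Other entries did not pass the range test. mir-6236-p5 (0.96 ± 0.33, edgeR adjusted p = 0.051) and mir-3964-p3 (0.87 ± 0.31, edgeR adjusted p = 0.055) fell just short with TMM factors, and both passed with DESeq2 size factors. mir-6236-p5 was at 0.53 without WT 82. mir-3964-p3 had 20.6, 20.2, 26.4 and 26.0 CPM in WT 35, WT 37, KO 40 and KO 46 and 29.7, 47.7, 44.4 and 48.6 CPM in WT 80, WT 82, KO 88 and KO 90, without overlap. The deposited entry of miR-142a-5p, with which it shares 19 bases, had 14794, 11666, 14393 and 16796 CPM and then 23817, 21025, 24700 and 30247 CPM in the same order, so both lay higher in animals 80 to 90. mir-3964-p3 had 0.125% to 0.226% of the counts of that entry in each library, and mir-3970-p5 at most 0.0626% of those of let-7i-5p. mir-6240-p3 and mir-6240-p5 differed by 0.02 ± 0.27 and 0.06 ± 0.28 between the ranges.

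mir-1983-p3 (−0.29 ± 0.47), mir-6236-p3 (−0.33 ± 0.56) and mir-3473f-p3 (−0.26 ± 0.57) had small negative log2 differences between the ranges with SEs larger than the values, and mir-3473d-p3 had 1.76 ± 1.48. mir-3473d-p3, the entry paired to its annotated arm, was low throughout: 5.35, 6.52, 1.72 and 8.28 CPM in WT and 0, 0, 7.39 and 1.27 CPM in KO. mir-3473f-p3 had 28.7, 54.0, 14.1 and 82.8 CPM in WT and 33.7, 44.4, 33.2 and 13.3 CPM in KO.

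**Figure D4:**
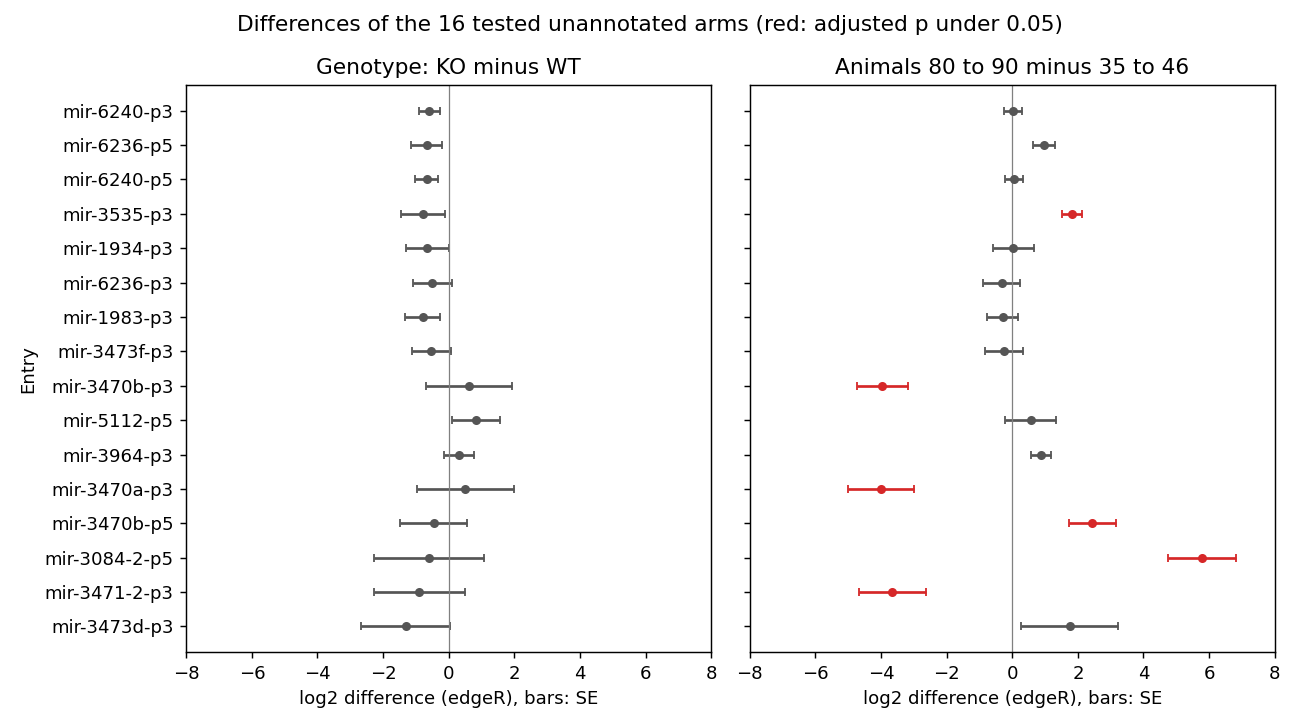
log2 difference with its SE (bars) of the 16 tested entries between genotypes (left) and between ranges of animal numbers (right), from edgeR; red marks an adjusted p under 0.05. The left panel has 0 red points, and the right has 3 on each side of 0.

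Among the annotated arms, miR-8112 was higher in animals 80 to 90 and miR-500-3p was lower. miR-500-3p had 745, 834, 902 and 1009 CPM in WT 35, WT 37, KO 40 and KO 46 and 190, 227, 178 and 212 CPM in WT 80, WT 82, KO 88 and KO 90 (−2.11 ± 0.20, edgeR adjusted p = 1.0e-04). mir-500-p5, the offset entry of that precursor, did not pass the filter and had counts of 0, 7, 10 and 7 and then 23, 11, 6 and 35 in the same order. mir-101b-p5, the other offset entry, had counts of 5, 14, 46 and 11 and then 9, 5, 0 and 7. Other measures moved with the ranges: 4 of 4 erythroid markers were listed and summed to 5060 to 7387 CPM in the lower range, against 636 to 2516 CPM in the upper. Of these, miR-451a and miR-486a-5p lay lower in the upper range without overlap. The markers miR-144-3p and miR-144-5p overlapped, and both were highest in KO 88 of the upper range. The 7 myeloid markers summed to 420209 to 549285 CPM in the lower range and 244546 to 418792 CPM in the upper. Within that sum miR-21a-5p, its largest part, and miR-511-3p lay lower in the upper range without overlap. By contrast, miR-142a-5p, miR-223-3p and miR-342-3p lay higher there without overlap, and miR-142a-3p and miR-146a-5p overlapped. The 5 listed hepatocyte markers overlapped between the ranges, with sums of 12226 to 139404 CPM and 9139 to 14215 CPM. Their part in the range differences was not tested. The difference of the genotype effect between the ranges was tested as an interaction, and edgeR called 0 of the 16 and 0 of the 627 entries (0%). At an unadjusted p below 0.05 there were 2 of the 16 and 30 of the 627. The other tools were not run for it.

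A last entry was seen almost in 1 library. mir-692-2-p3 had 360 counts in WT 80, 14 in WT 82, 5 in WT 35 and 0 in the other 5 libraries, so it did not pass the filter. Its sequence matched exactly Ftl1, the gene of the ferritin light chain of iron storage, and its precursor overlaps the pseudogene Ftl2-ps on chromosome 4. It is shown because its precursor name differs from its exact match in a coding gene.
mir-692-2-p3: agcacgactaggaggcctctgtacc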

How the data were processed

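Small RNA libraries of sorted Kupffer cells (4 WT and 4 KO, each a numbered animal) were analysed from 1 deposited table. Per the file headers and values, the authors deposited raw expected counts per sequence, not all whole, and a normalized signal that equals the raw value times 1 factor per library. The submitters' aligner, miRNA database and build were not given in the sources used here. Expected counts were rounded, filtered with filterByExpr (627 of 1234 entries kept), scaled by TMM and tested across all entries with the edgeR quasi-likelihood test (edgeR 4.0.16, R 4.3.3), Benjamini-Hochberg adjusted at 0.05. Arm ratios used log2 of counts with 0.5 added and limma 3.58.1. DESeq2 1.42.0, voom and limma-trend were alternatives, with other scalings, filters, a number range block and leaving out each library. The edgeR and limma fits were also run on simulated data with known changes.

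Sequences were compared with GENCODE M21 transcripts and RefSeq miRNA tables of GRCm38, and folded with RNAfold 2.7.2. The members, the marker lists, the number ranges and the rule for entries given by library (the 12 most abundant, the smallest p in each direction, the highest and lowest partner ratios, those matching other RNA) were chosen with earlier results of these data known. The entries named for position or sequence besides these, such as mir-692-2-p3 and mir-101b-p5, were chosen after their values were seen. Suffixes of entry names are mostly left out. The series' design calls the WT mice littermates of the KO mice, but which animals shared a litter or a day is not stated and no such term was fitted, so p-values measure the spread between these 8 animals.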

Additional observations from a re-analysis of the deposited data

Results flagged for a closer look

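mir-6236-p3 had 62.4 CPM in KO 46 against 25.7 to 29.5 CPM in the other 3 KO libraries. It was flagged because the gap to the nearest library was 0.845 of the range of its group, on log2 of CPM with 0.5 added. Of 32 groups of 4 libraries examined this was the 1 flagged, and chance would flag 1.6.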

How the results depend on the processing

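The genotype test called 0 of the tested entries under each alternative run, and so did the interaction and the arm ratios. With the number range as a block, 0 were called and 17 of the 627 entries, 1 of them among the 16, had an unadjusted p below 0.05. The number of entries called between the number ranges was 6 to 8 under the other scalings, filters and tests, and 3 to 8 when each library was left out. Over the whole table, 187 to 289 were called in the former settings and 129 to 222 in the latter. The number tested varied as well. With no filter 8 of 41 were called, against 227 of all 1234, and without WT 37 it was 3 of 21, against 129 of 701. Leaving out a library moved the share of counts in these entries over 0.564% to 0.886% in WT and 0.473% to 0.570% in KO; this, the interaction with a library left out and the median over the same 16 entries were alternatives chosen after seeing the data. Matches to other annotated RNA were 17 by exact search, 20 with 1 mismatch and 19 with the last 3 bases left out. Signs changed for small or variable log2 differences, and the cause was not tested. KO minus WT ran over −0.16 to 1.15 for mir-3470b-p3 and −0.39 to 1.504 for mir-3470a-p3 when each library was left out, negative without KO 46. Between the ranges, leaving out libraries gave −0.71 to 0.049 for mir-1983-p3 (positive without WT 35), −1.18 to 0.000556 for mir-6236-p3 (positive without KO 46) and −1.05 to 0.058 for mir-3473f-p3 (positive without KO 90, and 0.014 without WT 80). With total counts only mir-3473f-p3 was 0.041. No paired analysis was possible because the genotypes share no animal number. Depth limits the 25 entries below the filter, where 3 counts are 0.318 to 1.41 CPM of the unscaled totals.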
